A study of Homo sapiens with 6 samples.

Results

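The probe sets described here measure the mRNAs of cytosolic ribosomal proteins. They are the sets of an expression array on which every gene symbol starts with RPL or RPS and a number (or RPLP, or RPSA), without the RPS6K kinases. This rule, which uses names and no measured value, found 199 of 49293 probe sets, 191 with a single gene symbol and 8 with several. Of the 199, 62 belonged to small subunit genes, 95 to large subunit genes, 6 to the stalk, 20 to paralogs, 6 to pseudogenes and 8 to several symbols. The other 2 were genes that the rule caught by name only, RPS19BP1 and the long non-coding RNA RPL34-AS1. Of 77 core genes (31 small subunit, 43 large subunit and 3 stalk genes), 58 had at least 1 such probe set. The other 19, among them RPSA, RPS2, RPS26, RPL5, RPL10 and RPL13A, lay only on sets that also carry symbols outside the rule, mostly of small nucleolar RNAs encoded in their introns. There were 71 sets with a core symbol beside an outside one, and they are reported apart. The 2 Y-linked paralogs are counted but their levels are not given.

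Ribosomal proteins are the proteins of the cytosolic ribosome, the particle that translates messenger RNA. The small subunit decodes the message, the large subunit forms the peptide bond, and the acidic stalk proteins recruit the translation factors. The genes are transcribed at high levels in growing cells, most of their mRNAs begin with a run of pyrimidines (a TOP tract, from terminal oligopyrimidine) through which mTOR and LARP1 control their translation, and several have close paralogs and many processed pseudogenes.

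The cells were labelled HepG2, an established human liver cancer line. The control was a clone infected with an empty virus, and the knockdown was a clone whose virus expressed a short hairpin RNA targeting SOX9, a transcription factor of progenitor cells. Each group had 3 arrays, so each comparison is 3 against 3. Each arm is described as a clone, and the labels do not say that the arrays came from separate cultures. P-values therefore measure the spread between these samples alone, possibly a technical one, and an effect of the clone cannot be told apart from one of the knockdown. Values are log2 signals after RMA normalization by the submitters, differences are knockdown minus control on the log2 scale, and a probe set was called where the limma p, adjusted by Benjamini-Hochberg over all 49293 probe sets, was under 0.05.

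The description of the knockdown arrays mentions the empty virus, and for that reason the SOX9 level was checked first. The brightest SOX9 set read 8.15, 7.99 and 7.67 on the control arrays and 6.91, 7.08 and 6.90 on the knockdown arrays, with no overlap, a fall by 0.97 (SE 0.13, adjusted p = 0.00294). A second SOX9 set fell by 0.83 (adjusted p = 0.00470), and the third read -0.81 with overlapping groups (adjusted p = 0.0716). The levels of most liver genes went against the cell label: only 3 of 19 measured hepatocyte genes had a mean log2 signal of at least 5. Albumin read 3.15 and alpha-fetoprotein (AFP) 2.70 in control. The 3 were CPS1, which was bright (12.15 in control), TTR (5.4) and RBP4 (5.0), and RBP4 was called higher by 1.26. The hepatocyte list averaged 4.10 to 4.33 on control and 4.19 to 4.34 on knockdown arrays. The lists of other cell types averaged 3.94 to 4.19 and 4.15 to 4.34 (leukocyte), 4.55 to 4.89 and 4.47 to 4.72 (endothelial), and 3.99 to 4.11 and 4.07 to 4.22 (fibroblast). In bulk RNA, fewer cells of a type and less RNA per cell cannot be told apart. Poly-A control RNAs read 6.36, 6.48 and 6.95 on the control and 7.12, 6.79 and 6.93 on the knockdown arrays. The GAPDH signal difference between 3′ and 5′ sets was 0.04, 0.03 and 0.26 against 0.42, 0.37 and 0.24, with overlap. That of the actin control (HSAC07) was 2.56, 2.55 and 2.51 against 2.29, 2.34 and 2.19, lower on every knockdown array. The part of these differences in the results was not tested. Control array 3 lay nearest to the knockdown arrays on the first principal component.

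The start of the transcripts is shown for the genes on which the results turn, since TOP tracts are the shared feature of this gene class. The windows run from 30 bases before the annotated start through the first 20 transcribed bases, 5′ to 3′ on the gene's strand, from RefSeq on GRCh38.p14. Capitals mark a C followed by 4 or more C or T that lies within 5 bases of the start.
RPS14: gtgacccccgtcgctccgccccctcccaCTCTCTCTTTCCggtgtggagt
RPL35A: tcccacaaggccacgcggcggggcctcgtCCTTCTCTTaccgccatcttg
RPS25: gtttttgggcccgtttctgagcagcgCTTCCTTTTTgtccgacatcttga
RPS6: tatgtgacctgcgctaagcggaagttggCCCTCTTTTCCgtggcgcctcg
RPL31: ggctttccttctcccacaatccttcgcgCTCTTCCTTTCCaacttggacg
RPS27: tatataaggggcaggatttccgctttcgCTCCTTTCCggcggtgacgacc
RPS27L: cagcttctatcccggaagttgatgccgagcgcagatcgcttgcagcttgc
RPL36AL: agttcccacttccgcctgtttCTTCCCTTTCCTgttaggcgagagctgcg

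These windows lie at chr5:150449720-150449769 (minus strand, RPS14), chr3:197950160-197950209 (plus, RPL35A), chr11:119018324-119018373 (minus, RPS25), chr9:19380217-19380266 (minus, RPS6) and chr2:101002259-101002308 (plus, RPL31). Those of RPS27, RPS27L and RPL36AL lie at chr1:153990732-153990781 (plus), chr15:63157458-63157507 (minus) and chr14:49620607-49620656 (minus). The tract was found at 57 of 77 core genes (74.0%), at 3 of 9 paralogs (33.3%) and at 7408 of 35116 promoters in all (21.1%). RPS27 carried it and its paralog RPS27L did not. In the 300 bases around the start, CGGAAG on either strand was present at 59.7% of core genes, 55.6% of the paralogs and 19.5% of all promoters. TATAAA on either strand was present at 6.49%, 22.2% and 11.5%. Read on the opposite strand, CGGAAG holds the tract pattern, so these counts can overlap. A match describes these bases only.

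Most ribosomal protein probe sets differed little between the clones. Of the 199, 146 (73.4%) differed by less than 0.2 in either direction, beside 62.1% of all probe sets, and the median difference was -0.02, beside 0.01 over all probe sets. The share within 0.2 differed by signal, as given below. Of the members, 19 were called (9.55%), 16 higher and 3 lower, beside 12.6% of all probe sets (5.94% higher and 6.68% lower). The values of the groups did not overlap on 75 members (37.7%), beside 29.6% of all probe sets. Single-gene sets gave 16 higher and 2 lower of 191 with a median of -0.01. Multi-gene sets gave 0 higher and 1 lower of 8 with a median of -0.11, and 2 of the 8 had an unadjusted p under 0.05. Without control array 3, 14 single-gene sets were called higher and 7 lower. Without 1 of the other arrays, 7 to 11 were called higher, 7 without knockdown array 1, and 2 lower.

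The called sets were not the bright ones. The members were split by mean log2 signal over the 6 arrays, at limits chosen after the data were seen. At a signal of at least 11, 1 of 111 members was called, the paralog RPS27L, and none of the 105 core sets. Of these core sets, 5 had an unadjusted p under 0.05 (4.76%). Of all probe sets, 39.15% did so at that signal and 26.2% over all signals. All probe sets of that signal were called at 20.2%, and those without a ribosomal protein symbol at 23.4% (195 of 832). Between 11 and 13, 0 of 42 core sets were called, beside 23.3% of all sets in that range and 194 of 792 non-ribosomal ones. At 13 and above, 0 of 68 members were called beside 0.741% of all sets and 1 of 40 non-ribosomal ones, so at the top of the scale few sets of any kind were called. The highest signal of any set was 14.13 to 14.23 by array.

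The 105 bright core sets averaged 13.02, 13.07 and 13.02 on the control arrays and 12.99, 12.97 and 13.01 on the knockdown arrays. The lowest control mean thus lay just above the highest knockdown mean. With limma's trended prior, which lets the variance depend on signal, 6 of these core sets were called, each lower: RPL10A (-0.34), RPL39 (-0.26), RPL22 (-0.25), RPL9 (-0.24), RPS6 (-0.22) and RPL8 (-0.21). For RPL39, RPL22, RPL10A and RPL9 the set called this way was not the brightest one, which read 0.01, 0.09, -0.14 and -0.11.

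At signals from 5 to 11, 16 of 59 members were called (27.1%), 15 higher and 1 lower, beside 19.9% of all probe sets of that range. The median difference of these 59 was 0.19, beside 0.00 for all sets there. They averaged 7.58, 7.64 and 7.58 on the control and 7.79, 7.82 and 7.81 on the knockdown arrays, without overlap. Of the 59, 20 (33.9%) differed by less than 0.2 in either direction, beside 48.7% of all sets there. At signals of at least 11 that share was 91.9% of members, beside 54.5% of all sets. Below 5, 0 members were higher and 2 lower of 29, beside 3.25% of all sets. The median within-group standard deviation of the members was 0.05 at a signal of at least 11 and 0.11 between 5 and 11. When the poly-A control level, which differs between the groups, entered as a covariate, 5 members were called: both RPS14 sets, the RPL35A set, 1 RPS25 set and 1 RPL31 set. The part of that level in the other calls was not tested further.

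**Figure D1:**
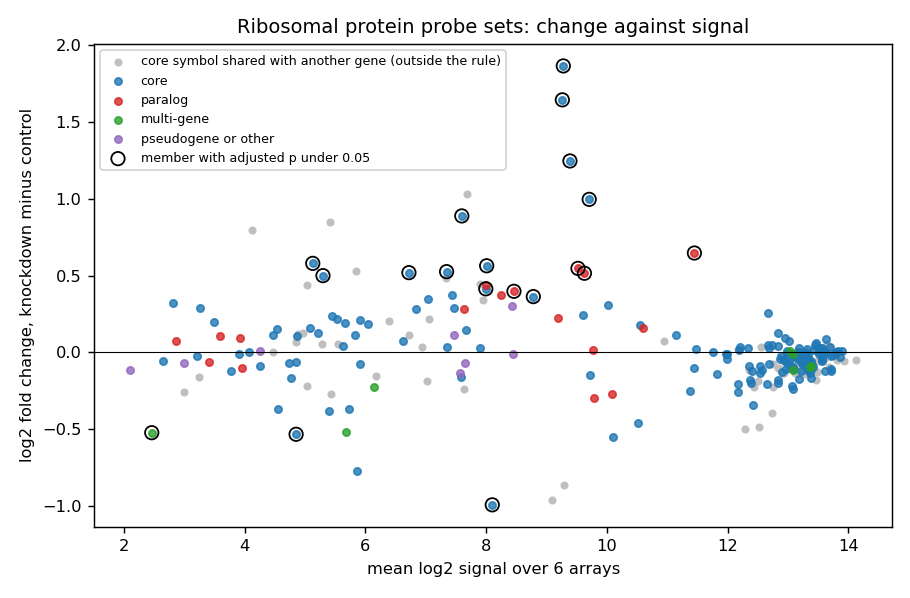
Log2 fold change (knockdown minus control) of each ribosomal protein probe set against its mean log2 signal over 6 arrays, coloured by class, with rings around the members called at an adjusted p under 0.05 and grey points for sets shared with an outside symbol. The 105 core sets at 11 or above lie between -0.34 and 0.26 with no ring, and 16 of the 19 rings lie between 5 and 11.

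Read through its brightest single-gene set, no core gene with a signal of at least 11 was called. That set reached 11 for 50 core genes, and their differences ran from -0.22 (RPS6) to 0.09 (RPL24) with a median of -0.03. In contrast, 9 core genes had at least 1 called single-gene set. Except for RPL35A, each called set had a lower signal than another single-gene set of its gene. For RPL35A the called set was the brightest single-gene one (signal 9.39), and only a set shared with ZNF391 was brighter. Sets shared with outside symbols are not in these counts. The brightest RPL3 set was such a shared set and was called lower (-0.40, mean signal 12.74). Probe sets of a gene share its transcripts and are not replicates.

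Of the 62 small subunit sets, 7 were called (11.3%, beside 12.6% of all probe sets), each higher. An unadjusted p under 0.05 was found for 11 (17.7%, beside 26.2%), and the median was -0.03. RPS14, a small subunit protein whose loss of 1 copy is known from the myelodysplastic syndrome with a deletion on chromosome 5, gave the largest difference. Its set 11725714_a_at read 8.32, 8.17 and 8.55 on the control arrays and 10.16, 10.23 and 10.24 on the knockdown arrays. Control and knockdown values lay far apart, and the set rose by 1.87 (SE 0.12, 3.65-fold, adjusted p = 8.72e-05). The set 11725715_x_at read 8.45, 8.12 and 8.74 against 9.98, 10.20 and 10.08 and rose by 1.65 (SE 0.15, adjusted p = 0.00054).

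The bright RPS14 set, 11715540_s_at, averaged 13.42 on the control arrays and 13.44 on the knockdown arrays, a difference of 0.02 (SE 0.09, adjusted p = 0.946). Both called sets were placed by the deposited table at chr5:149822384-149829319 on the minus strand, in coordinates whose build the sources used here do not give. That alignment ran 364 bases further on its low side and 19 on its high side than that of the bright set. The difference between the set 11725714_a_at and the bright set changed by 1.85 (SE 0.11). At signals of at least 13, where the bright set lies, 0.741% of all sets were called, and whether such a set can still show a change was not tested, so this and the like differences mostly restate the change of the dimmer set. An exact two-sided permutation test over the 6 arrays gave p = 0.1, the smallest that 3 against 3 allows, for this and for each other difference between a called set and the brightest set of its gene. The probes' own sequences were not used here.

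RPS25, a small subunit protein needed for initiation at several viral internal ribosome entry sites, had 4 sets. The set 11758719_at read 7.06, 7.07 and 7.32 in the control clone and 7.95, 8.09 and 8.08 in the knockdown clone, without overlap, and rose by 0.89 (SE 0.11, adjusted p = 0.00177). The set 11758720_x_at rose by 0.36 (adjusted p = 0.0386), a call lost in 8 of 15 alternatives. Both had the same alignment, chr11:118886421-118889375 on the minus strand in the table's coordinates, as the bright set 11715495_a_at, which read -0.12 (adjusted p = 0.502). Sets with one alignment thus gave different values, by 1.01 (SE 0.12) between the first and the bright one.

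RPS6, the substrate of the S6 kinases downstream of mTOR, read 9.62, 9.04 and 8.97 on the control arrays and 10.48, 9.74 and 10.40 on the knockdown arrays on the set 11763016_at. The groups were apart by little more than 0.1, and the set rose by 0.997 (SE 0.23, adjusted p = 0.0207). Without control array 2, knockdown array 1 or knockdown array 3 that call was lost (highest adjusted p over all alternatives 0.143). Its brightest set read -0.22 (SE 0.09, adjusted p = 0.166), and 2 further sets read -0.04 and -0.01. A set of RPS28 rose by 0.58 (SE 0.12, adjusted p = 0.0170) at a mean signal of 5.13, a call lost without control array 2, knockdown array 1 or knockdown array 2. A set of RPS27A, which encodes a fusion of ubiquitin with a ribosomal protein, rose by 0.50 (adjusted p = 0.0288). RPS27A was named because its set completes the 7, and the call was lost in 7 of 15 alternatives.

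The other small subunit genes chosen by role were not called. RPS3, a protein of the mRNA entry channel that also repairs DNA, read -0.10 (adjusted p = 0.617). RPS19, the gene most often mutated in Diamond-Blackfan anaemia, read -0.17 (SE 0.09, adjusted p = 0.285). RPS27A's brightest set read -0.02. The brightest sets of RPSA and RPS26, both shared with outside symbols, read -0.03 and 0.03.

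**Figure D2:**
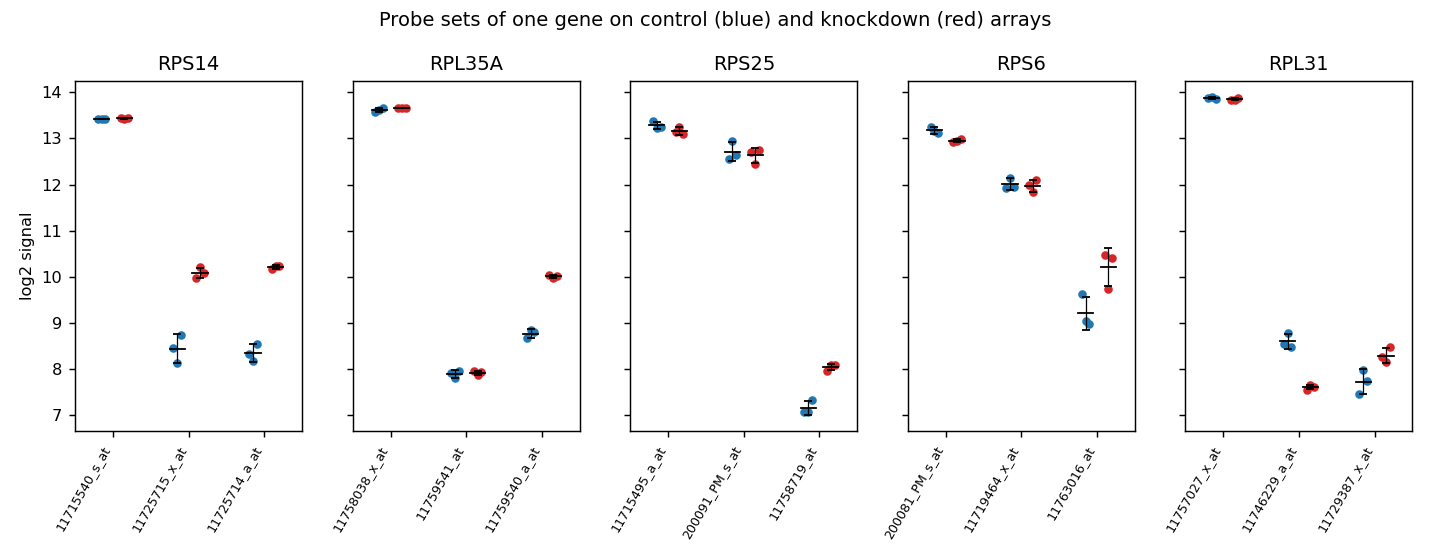
Log2 signal of the brightest and further probe sets of RPS14, RPL35A, RPS25, RPS6 and RPL31 on the 3 control (blue) and 3 knockdown (red) arrays, with the mean and SD as black lines. The bright sets near 13 to 14 lie almost level between groups, while at least 1 dimmer set of RPS14, RPL35A, RPS25 and RPS6 was higher on the knockdown arrays and RPL31 had 1 dimmer set higher and 1 lower.

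Of the 95 large subunit sets, 5 were called higher and 2 lower (7.37% in all, beside 12.6%), with a median of -0.01. RPL35A, a large subunit protein also mutated in Diamond-Blackfan anaemia, read 8.66, 8.84 and 8.79 in the control clone and 10.03, 9.98 and 10.02 in the knockdown clone on the set 11759540_a_at. The groups were far apart, and the set rose by 1.25 (SE 0.10, 2.37-fold, adjusted p = 0.000224). The set 11759541_at, with the same alignment at chr3:197677085-197683480 on the plus strand in the table's coordinates, read 7.91, 7.80 and 7.95 against 7.96, 7.86 and 7.93, a difference of 0.03. The brightest set, shared with the zinc finger gene ZNF391, read 0.05 (adjusted p = 0.784). The difference between the called set and that one changed by 1.19 (SE 0.04).

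RPL31, a protein near the exit of the peptide tunnel, was the 1 gene with called sets in both directions. The set 11746229_a_at read 8.54, 8.78 and 8.48 on the control arrays and 7.55, 7.65 and 7.61 on the knockdown arrays and fell by 0.99 (SE 0.11, adjusted p = 0.00116). The set 11760320_at, of the same alignment (chr2:101618750-101637620 on the plus strand in the table's coordinates), fell by 0.53 (SE 0.10, adjusted p = 0.0105) at a mean signal of 4.85. On its high side this alignment ran 15091 bases beyond that of the brightest set.

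The sets 11729386_s_at and 11729387_x_at of RPL31, which share another alignment, rose by 0.41 (adjusted p = 0.0189) and 0.56 (adjusted p = 0.0366). Both calls were lost in 7 of 15 alternatives. The 2 bright RPL31 sets read -0.03 and -0.02. The level that one reads for RPL31 therefore differs in sign with the probe set.

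Single sets of RPL36 and RPL37A, both small proteins of the large subunit, rose by 0.53 (SE 0.10, adjusted p = 0.0124) and 0.52 (SE 0.10, adjusted p = 0.0100). Both calls were lost without knockdown array 1, and the brightest sets of the genes read 0.18 and -0.02. RPL11, which binds MDM2 together with RPL5 and the ribosomal RNA of the central protuberance, read 0.03 (adjusted p = 0.888). RPL5 and RPL10, the latter a late-joining protein of the large subunit, read -0.06 and -0.07 on their brightest shared sets. RPL13A, a protein of the GAIT complex that represses translation, read -0.05 on its brightest shared set, and RPL22, which is not essential for translation in mice, read 0.09 on its brightest set.

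None of the 6 stalk sets was called by limma, and none had an unadjusted p under 0.05, beside 12.6% and 26.2% of all probe sets. The groups did not overlap on 4 of the 6 (66.7%), beside 29.6% of all probe sets. The RPLP0 and RPLP1 sets lie at signals of at least 13, where 0.741% of all sets were called. RPLP0, the scaffold of the stalk, averaged 13.79 over the 6 arrays, with a difference of 0.00 (SE 0.09), with within-group standard deviations of 0.0019 and 0.0062. The 4 sets of RPLP1 read -0.11 to -0.13, each without overlap. The single RPLP2 set inside the rule had a signal of 2.64, near the bottom of the scale, and read -0.06. The brightest RPLP2 set, shared with SNORA52, had a mean signal of 12.93 and read -0.14 (adjusted p = 0.464).

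Paralogs were measured on 20 sets, of which 4 rose and 0 fell, with 9 at an unadjusted p under 0.05 and a median of 0.10. This share of calls lay near the 19.9% of all sets at signals of 5 to 11, the range of the paralogs' median signal of 8.12. RPS27L, a paralog of RPS27 that p53 is known to induce, read 11.03, 11.07 and 11.30 in the control clone and 11.81, 11.75 and 11.77 in the knockdown clone. Every knockdown array lay above every control array, and the set rose by 0.65 (SE 0.11, adjusted p = 0.00572). RPS27 read -0.07 (adjusted p = 0.724). The difference between paralog and parent changed by 0.71 (SE 0.10, exact permutation p = 0.1, the smallest possible). At signals of at least 13, 1 of 40 non-ribosomal sets was called. The parent sets of RPS27 (13.38), RPL36A (13.04), RPL39 (13.51) and RPL22 (13.63) lie in that range. Whether these sets can still show a change was not tested, so these differences do not show that the parents did not change. The table also aligned some parent sets away from their genes, RPS27 to chromosome 7, RPL39 to chromosome 6, RPL36A to chromosome 15 and RPL7 to chromosome 5. The call of RPS27L was kept in 14 of 15 alternatives and lost with the poly-A level as a covariate (adjusted p = 0.0785).

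RPL36AL, an intronless copy of RPL36A that is itself expressed, rose on both of its sets, by 0.55 (SE 0.11, adjusted p = 0.0121) and 0.52 (SE 0.09, adjusted p = 0.00938). On the brighter set its values were 9.31, 9.35 and 9.45 on the control arrays and 9.88, 9.94 and 9.84 on the knockdown arrays, without overlap. The parent's set, shared with the read-through RPL36A-HNRNPH2, read 0.01, and the difference changed by 0.51 (SE 0.08, exact permutation p = 0.1). Both RPL36AL calls were lost with the replicate number as a block and with the poly-A covariate.

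RPL39L, a paralog of RPL39 best known from the testis and cancers, read 9.94, 10.07 and 9.78 in the control clone and 9.66, 9.61 and 9.62 in the knockdown clone. The groups did not overlap, and the difference was -0.30 (SE 0.10, adjusted p = 0.0990) beside 0.01 for RPL39. The difference between them changed by -0.31 (SE 0.07, exact permutation p = 0.1). RPL22L1 read -0.27 (SE 0.14, adjusted p = 0.263) beside 0.09 for RPL22, RPL26L1 read 0.16 (adjusted p = 0.327) beside -0.14 for the shared set of RPL26, and RPL7L1 read 0.02 beside -0.14 for RPL7 on the brightest sets. The exact permutation p of these differences was 0.2, 0.2 and 0.6. A dimmer RPL7L1 set was called at 0.40 (SE 0.09, adjusted p = 0.0254) and was named because it completes the 4. That call was lost in 7 of 15 alternatives. The other RPL7L1 sets with a signal of at least 5 read 0.44, 0.37, 0.28 and 0.22. They were not called (limma adjusted p = 0.0541, 0.0511, 0.101 and 0.156), so among these sets the brightest one differed least. RPL3L, a muscle paralog, and RPL10L, a testis paralog, had signals under 5 and read 0.09 and -0.10. Over the 6 pairs of paralog and parent, differences between arrays were tested singly, and none could pass an adjustment at this number of arrays.

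**Figure D3:**
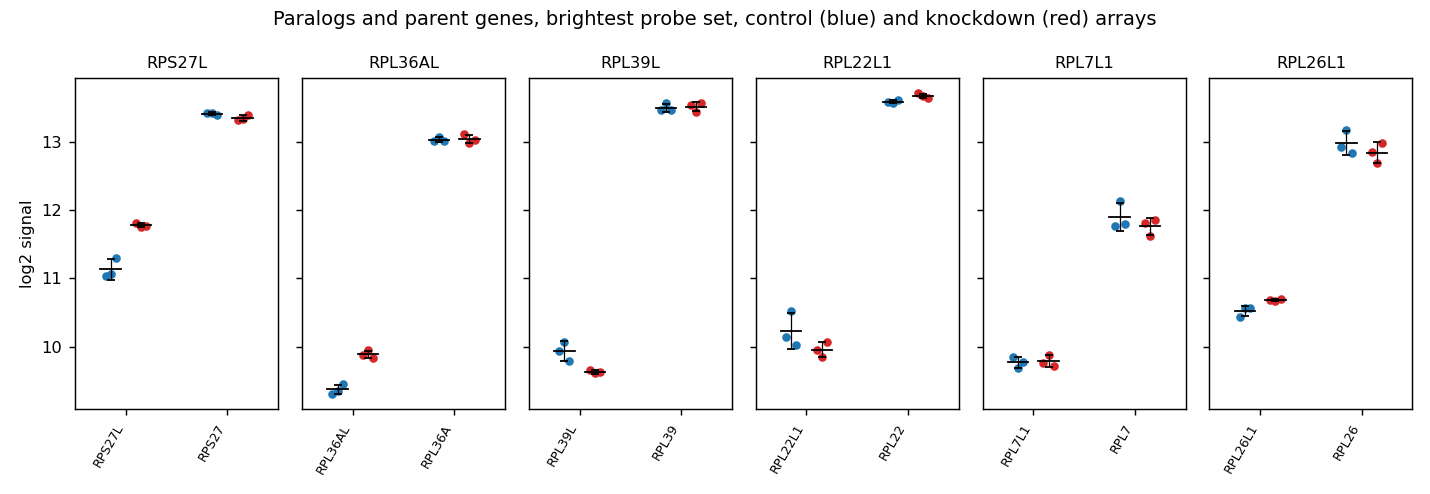
Log2 signal of the brightest probe set of 6 paralogs and of their parent genes on the 3 control (blue) and 3 knockdown (red) arrays, with mean and SD as black lines. RPS27L and RPL36AL lay higher on every knockdown array while the means of RPS27 and RPL36A differed by -0.07 and 0.01, and RPL39L lay lower.

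The multi-gene members included 3 sets of the pseudogenes RPL23AP7 and RPL23AP82, 2 of RPS10 with its read-through RPS10-NUDT3 and 1 of RPL36A with RPL36A-HNRNPH2. The pseudogene set 11763282_x_at read 2.59, 2.99 and 2.59 on the control arrays and 2.32, 2.11 and 2.16 on the knockdown arrays. It was called lower by 0.52 (SE 0.13, adjusted p = 0.0325) at a mean signal of 2.46, and the call was kept with control array 3 left out but lost without any of the other 5 arrays. The other pseudogene sets, at signals of 5.68 and 6.14, read -0.52 (adjusted p = 0.116) and -0.23 (adjusted p = 0.261). The sets of RPS10 read -0.09 and -0.10, and that of RPL36A 0.01. These bright shared sets thus lay in the range of the single-gene sets of like signal.

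Of the 6 single-symbol pseudogene sets none was called by limma and none had an unadjusted p under 0.05. They covered RPL13P5, RPS2P32, RPSAP9 and RPL36AP33, with differences of -0.13 to 0.11. The table also placed the brightest RPS28 set on chromosome 11 but the called RPS28 set on chromosome 19, and probes that match a gene and its processed copies cannot separate them. The 2 sets caught by name only read 0.30 (RPS19BP1, adjusted p = 0.0815) and -0.07 (RPL34-AS1).

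The 71 sets that pair a core symbol with an outside one gave 6 higher and 5 lower calls (15.5%, beside 12.6% of all probe sets), with a median of -0.06. Each call was kept in at least 8 alternatives, and in all 15 for 1 set of RPS26 and 1 listed under RPSA. Among these, a set of RPS26 (shared with LOC100996747) read 7.18, 6.93 and 7.38 in the control clone and 8.14, 8.27 and 8.18 in the knockdown clone and rose by 1.03 (SE 0.13, adjusted p = 0.00174). A set listed under RPSA, SNORA6 and SNORA62 rose by 0.85 (adjusted p = 0.00193) and another by 0.53 (adjusted p = 0.0196). The table aligned them to short stretches, chr3:39449881-39450030 and chr3:39452544-39452698, while the brightest set listed under RPSA spans chr3:39452242-39453929. A set listed under RPS2, SNORA10 and SNORA64 rose by 0.48 and lies likewise on a short stretch, chr16:2012272-2012481. Whether these 3 sets measure the ribosomal protein mRNA or a small nucleolar RNA cannot be told apart here. Of RPL27A and RPL10, 1 set each rose by 0.80 and 0.44. That of RPL27A had a mean signal under 5, and the other, brighter RPL27A sets read 0.06 and 0.12 and were not called. The brightest sets of RPSA, RPS26, RPS2 and RPL10 read -0.03, 0.03, -0.06 and -0.07.

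Of the 5 that fell, 3 were bright. Of RPL3, which lines the peptidyl transferase centre, a set shared with small nucleolar RNAs read 12.61, 12.62 and 12.40 on the control arrays and 11.98, 12.03 and 12.12 on the knockdown arrays. It fell by 0.50 (SE 0.10, adjusted p = 0.0149). A second shared set, the brightest of RPL3, fell by 0.40 (adjusted p = 0.0291). These calls were lost in 5 and 7 of 15 alternatives. A set of RPL13A shared with 4 small nucleolar RNAs fell by 0.49 (adjusted p = 0.00978), while the brightest RPL13A set read -0.05. At signals near 9, 2 sets of RPL37 shared with LOC100506548 fell by 0.96 (adjusted p = 0.00372) and 0.86 (adjusted p = 0.0143), and the RPL37 set shared with SNORD72 read -0.05. Another set with the symbols and the alignment of those 2 read 0.20 (adjusted p = 0.645), and a single-gene RPL37 set of that alignment read 0.28 (adjusted p = 0.308). These genes were named after their values were seen.

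The genes that work with ribosomal proteins were taken as one brightest single-gene set each. Among 14 elongation factors and other TOP mRNAs, 1 fell and none rose, with a median of -0.08. It was EEF1G, the gamma subunit of elongation factor 1, which fell by 0.48 (SE 0.11, adjusted p = 0.0261). The EEF1G call was lost without control array 1 or 2 or knockdown array 1 or 2. HNRNPA1, an RNA-binding protein, read 0.26 (adjusted p = 0.115). Counted over genes by the brightest set, 16.8% of 18574 were called.

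Of 12 measured subunits of initiation factor eIF3, 2 rose and none fell. EIF3G read 7.75, 7.59 and 8.21 in the control clone and 8.86, 8.78 and 8.55 in the knockdown clone, without overlap, and rose by 0.88 (SE 0.16, adjusted p = 0.00989). EIF3B rose by 0.57 (SE 0.12, adjusted p = 0.0182). The list's median was 0.03, and the count was 1 without control array 1 or 2 or knockdown array 1 or 2.

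Of 16 measured chaperones, partners and importers of ribosomal proteins, 4 rose and 1 fell, with a median of 0.15. GRWD1, a chaperone of RPL3, rose by 0.58 (adjusted p = 0.0239), MRTO4, a nucleolar relative of the stalk scaffold, by 0.58 (adjusted p = 0.00973), LTV1, an assembly factor of the small subunit, by 0.50 (adjusted p = 0.0131), and BCCIP, a partner of RPL23, by 0.38 (adjusted p = 0.0261). ZNF277, a partner of the small subunit protein RPS2, read 8.64, 8.97 and 8.60 on the control arrays and 7.86, 7.81 and 7.87 on the knockdown arrays and fell by 0.89 (SE 0.12, adjusted p = 0.00257). The fall of ZNF277 was larger than any of the 4 rises in the list. The count of 5 calls was 1 without knockdown array 1, 2 without control array 1 and 3 without knockdown array 2.

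Of 17 regulators of ribosomal protein synthesis, 1 rose and 2 fell, with a median of -0.01. MYC, a transcription factor that drives ribosomal protein genes, read 10.00, 10.29 and 9.77 in the control clone and 9.28, 9.27 and 9.49 in the knockdown clone and fell by 0.67 (SE 0.14, adjusted p = 0.0154). EIF4EBP1, a repressor of cap-dependent translation that mTOR inactivates, fell by 0.64 (SE 0.11, adjusted p = 0.00639). RPTOR, the scaffold of mTOR complex 1, rose by 0.40 (SE 0.11, adjusted p = 0.0408), and LARP1, which binds TOP mRNAs, read -0.02 (adjusted p = 0.946). The count of 3 calls was 5 without control array 3, 2 without control array 2 or knockdown array 3, and 1 without any of the others. Of 5 genes of the MDM2 and p53 response none was called by limma, with 2 at an unadjusted p under 0.05: RRM2B, a p53-induced ribonucleotide reductase subunit, read 0.29 (adjusted p = 0.149), and the cell cycle inhibitor CDKN1A read -0.23 (adjusted p = 0.177).

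**Figure D4:**
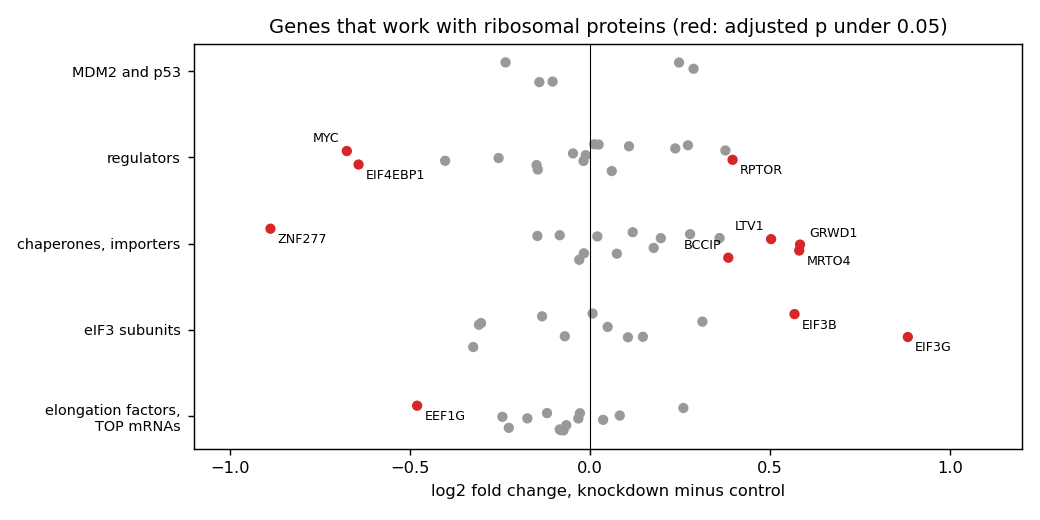
Log2 fold change (knockdown minus control, x axis) of genes that act with ribosomal proteins, by list, each through its brightest single-gene probe set, with red points for genes called at an adjusted p under 0.05. The named red points lie between -0.89 (ZNF277) and 0.88 (EIF3G), and the MDM2 and p53 list holds none.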

How the data were processed

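RNA of 3 control and 3 knockdown samples was measured on 3′ expression arrays. The deposited log2 values of 49372 probe sets were made by the authors with RMA and the affy package, per the submitters' processing notes. The sources used here do not give versions, the array design or the build of the table's alignments. RMA equalises the distributions of the arrays, so a shift shared by most transcripts is removed, and it compresses low signals. The 79 control sets were left out of the tests.

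Groups, taken from the sample titles, were compared two-sided and without covariate by lmFit and eBayes of limma 3.58.1 (R 4.3.3) over all 49293 other probe sets, adjusted by Benjamini-Hochberg. The script was tested on simulated data. Tables and figures were made with Python 3.11.15, pandas 2.3.3 and matplotlib 3.10.9. A second deposited table of the same log2 values held 0 values that differed. Symbols were updated through Entrez numbers for 191 members, which changed 1. Single differences between probe sets were tested by exact two-sided permutation over arrays. Promoters came from RefSeq on GRCh38.p14.

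Named were called members (up to 12 rises and 12 falls), the 4 core sets of smallest p per subunit, genes chosen by role, the 5 core genes whose sets differed most, multi-gene sets, and passing genes of each list. Exceptions are stated beside them, and a few results are not reported here. The members and lists were chosen with earlier results of these data known. Alternatives changed the filter, normalization, variance model, replicate block, probe set choice and arrays used; the poly-A covariate, the signal ranges and the sets shared with outside symbols were added after seeing the data. The number of arrays limits the precision.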

Additional observations from a re-analysis of the deposited data

How the results depend on the processing

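Of the called sets named in the text, none changed its direction under the alternatives run, and the deposited second table gave the same values. The number of all probe sets called, 6220, was 3343 with the replicate number as a block, 990 with the poly-A covariate and 2508 to 8757 with an array left out. Single-gene sets called higher numbered 16, and 9 with the block, 4 with the poly-A covariate, 3 with one set per gene, 8 without sets ending in _s_at or _x_at and 7 to 14 with an array left out. Those called lower numbered 2, and 6 at signals of at least 5, 6 with cyclic loess, 5 with quantile normalization, 10 with limma-trend, 7 with array weights, 1 with the covariate, 0 with one set per gene and 2 to 7 with an array left out, 7 being without control array 3. The 1 multi-gene set called lower was lost (0) at signals of at least 5, with the block, with the covariate, without _s_at and _x_at sets and with core symbols only, and with an array left out the count was 0 to 1.

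Members called at a signal of at least 11 numbered 1, and 2 with the filter, loess, quantile normalization or array weights, 7 with limma-trend, 0 with the covariate and 1 to 2 with an array left out. Those called at 5 to 11 numbered 16, and 9 with the block, 5 with the covariate and 7 to 18 with an array left out. The median log2 fold change of single-gene members was -0.011, and 0.0090 after median centring, -0.053 with loess, 0.0085 with quantile normalization, 0.027 without _s_at and _x_at sets and -0.024 to 0.0011 with an array left out. That of multi-gene sets was -0.15 to -0.10 with an array left out, and the SOX9 difference -1.11 to -0.86.

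Called TOP genes numbered 1, and 2 with limma-trend, 0 with the block or covariate and 0 to 1 with an array left out. Called eIF3 subunits numbered 2, and 4 with the filter, loess, quantile normalization, limma-trend or array weights, 1 with the block, 0 with the covariate and 1 to 3 with an array left out. Called chaperones and importers numbered 5, and 2 with the block, 1 with the covariate and 1 to 5 with an array left out. Called regulators numbered 3, and 5 with array weights, 0 with the covariate and 1 to 5 with an array left out. The causes were not tested.

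The replicate numbers did not pair the samples: same-numbered arrays correlated at -0.24, -0.40 and -0.42 in their deviations from the group means. Arrays of different number correlated at -0.15 to 0.53, the highest for control array 2 with knockdown array 3. What such arrays share was not tested. Both RPS14 sets, RPL35A 11759540_a_at, RPS25 11758719_at and RPL31 11746229_a_at were called in all 15 alternatives run, and the highest adjusted p among them was 0.0336. With 3 arrays a group no exact test of a single value can go below p = 0.1, and signals under 5 are compressed by RMA.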
